A study of Rattus norvegicus with 8 samples.

Results

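The 9 genes described here encode neurotrophic and growth factors and, in 1 case, a receptor, and were followed in rat cortex after a transient stroke. Their symbols are Bdnf, Ntrk2, Gdnf, Igf1, Fgf2, Hbegf, Tgfb1, Inhba and Csf1. They are 9 of 10911 symbols in the deposited table and were taken by symbol alone; they had 13 of its 23609 probes, of which 12 had a value on all 8 arrays. The tMCAO group was 4 Sprague Dawley rats whose middle cerebral artery was occluded and reopened, and the sham group was 4 sham-operated rats of that strain. Brain tissue was taken at 24 h; a section of 4 mm on the side of the operation was split into cortex and striatum, and the cortex was used. On each 2-colour Agilent array, Cy5 marked the RNA of 1 animal and Cy3 marked pooled RNA from sham cortex, with no dye swap. A log2 ratio of 0 therefore stands for the level of the pool. The labels call the animals biological replicates and do not state their age or sex.

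Growth factors are secreted proteins that bind receptors on the surface of nearby cells. Most of the receptors concerned here are tyrosine kinases that start the MAPK, PI3K and phospholipase C pathways, while activins and TGF-beta use serine/threonine kinase receptors that act through SMAD proteins. In the brain such factors keep neurons alive, shape synapses and control the division and activation of glia, vessels and microglia. BDNF and GDNF are best known for neuronal survival, HB-EGF and FGF2 as mitogens of glia and progenitors, and CSF1 as the survival factor of microglia.

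Csf1 and Hbegf were higher in tMCAO than in sham cortex, Csf1 by 2.07-fold and Hbegf by 1.34-fold. The brighter of the 2 Ntrk2 probes was 1.67-fold lower, on the 7 arrays where it had a value and with sham signals near the top of the scale. Inhba had the highest fold of the 9 genes, 4.45, but its 4 tMCAO animals lay far apart and it missed the threshold. Bdnf was above every sham animal in 2 tMCAO rats and below every sham animal in the other 2. Gdnf, Fgf2 and Tgfb1 gave signals of a few hundredths of a unit, where rounding of the deposited values alone could turn their direction.

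The comparison of the 2 groups asks which genes changed in cortex after the occlusion. Every difference below is the mean log2 ratio of the tMCAO animals minus that of the sham animals, given with its standard error and a p-value from limma, adjusted over all 17913 features by the Benjamini-Hochberg method. A gene was called at an adjusted p under 0.05. Of the 9 genes, 2 were called higher, none lower and 7 were not called. An unadjusted p under 0.05 in limma was found for 5 of the 9 genes and for 7881 of the 17913 features. Over all features 15.0% were called higher, 16.0% lower and 31.0% in either direction, and the 2 of 9 are read against these shares. The median difference was 0.27 over the 9 genes and -0.05 over all features. Differences were positive for 8 of the 9 genes and for 7993 of the 17913 features. Among those 8, the sign was not resolved within rounding for Gdnf, Fgf2 and Tgfb1, and Bdnf changed sign without tMCAO replicate 3. In 2 of the 9 genes, Hbegf and Csf1, all tMCAO animals lay above all sham animals, which held for 13.8% of all features; in none did all tMCAO animals lie below, against 16.2% of all features. The brighter Ntrk2 probe, which lacks a value on 1 array, is not in these counts. Set against the pool in place of the sham animals, 6 of the 9 genes were called higher in tMCAO and none lower in limma. Of all features, 22.6% were called higher and 26.4% lower in that comparison. Both comparisons use the same tMCAO arrays. The 6 genes include the dim Fgf2 (adjusted p 0.0496 in limma) and Tgfb1 (adjusted p 0.024). The sham mean also lay above the pool for 8 of the 9 genes, and for 8662 of the 17913 features.

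Animals differed in how far they stood from the pool. The SD of the log2 ratios over all probes was 0.741, 0.690, 0.614 and 0.368 on tMCAO replicates 1, 2, 3 and 4, against 0.230 to 0.258 on the sham arrays. Replicate 4 of tMCAO thus stood closest to the sham arrays. Without it, 21.8% of features were called higher and 24.1% lower. In bulk cortex, fewer cells of a type and less RNA per cell cannot be told apart. Markers of the labelled tissue were measured: all 6 general neuron markers were called lower, with a summed Cy5 signal of 11.8 to 20.0 in tMCAO and 28.7 to 31.9 in sham animals, and 5 of them without tMCAO replicate 4. Of 9 monocyte and macrophage markers 6 were called higher, with summed signals of 11.1 to 31.3 in tMCAO and 4.70 to 5.19 in sham animals. Of 9 endothelial markers 5 were higher, at 16.5 to 50.1 against 12.5 to 13.3, and of 8 microglia markers 3 were higher, at 30.5 to 48.4 against 24.3 to 25.5. Without tMCAO replicate 4, 7 endothelial and 5 microglia markers were called higher. The part of these cell types in the values below was not tested.

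**Figure D1:**
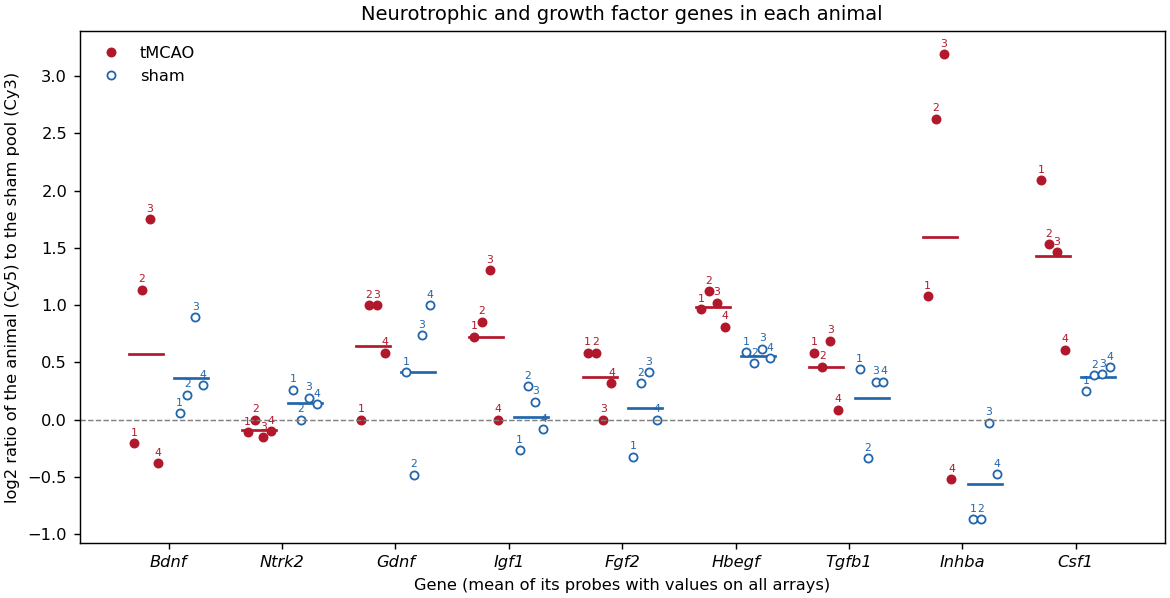
Log2 ratio of each animal (Cy5) to the sham pool (Cy3) for the 9 genes, as the mean of a gene's probes with values on all arrays. Filled red points are tMCAO animals, open blue points sham animals, with the replicate number above each point and a bar at the group mean; the dashed line is the pool. Groups are apart for Hbegf and Csf1, and Bdnf and Inhba have the widest spread among tMCAO animals.

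Bdnf encodes brain-derived neurotrophic factor, whose transcription follows neuronal activity and whose receptor is TrkB. Its Cy5 signal was 1.86, 4.35, 7.15 and 1.61 in tMCAO replicates 1 to 4, against 1.91, 2.50, 3.20 and 2.32 in sham replicates 1 to 4. The pool read 1.72 to 2.15 across the 8 arrays, so the spread lay in the animals' own channel. On the log2 scale the ratios to the pool were -0.20, 1.14, 1.75 and -0.38 in tMCAO replicates 1 to 4, against 0.05, 0.22, 0.90 and 0.30 in sham replicates 1 to 4. Replicates 2 and 3 of tMCAO were above all sham animals, replicates 1 and 4 below all of them. The tMCAO group had an SD of 1.03, larger than that of 99.4% of features, and the sham group 0.37, larger than that of 93.5%. The mean difference was 0.21 ± 0.46 (SE), or 1.16-fold with a 95% confidence interval of 0.555 to 2.40, with an adjusted p of 0.752 in limma. The difference turned to -0.18 without tMCAO replicate 3 and to -0.29 after quantile normalization of the ratios.

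The start of Bdnf transcription varies between its many first exons, and the files do not say which of them the probe, named for RefSeq transcript NM_012513, reads. Of the 6 windows that RefSeq lists for Bdnf on assembly GRCr8, from 250 bases before to 50 after a start, 2 are shown. They hold a match to a motif sought as a possible site of activity-induced factors. All windows were searched on both strands for TGANTCA, a loose form of the AP-1 motif in which N is any base. The other motif was TGACG, the core of the cAMP response element that CREB binds. Capitals mark the matches. An AP-1 match here is any match to TGANTCA and need not be a consensus site.
Bdnf window 3, chr3:116621721-116622020, plus strand, with 1 AP-1 match: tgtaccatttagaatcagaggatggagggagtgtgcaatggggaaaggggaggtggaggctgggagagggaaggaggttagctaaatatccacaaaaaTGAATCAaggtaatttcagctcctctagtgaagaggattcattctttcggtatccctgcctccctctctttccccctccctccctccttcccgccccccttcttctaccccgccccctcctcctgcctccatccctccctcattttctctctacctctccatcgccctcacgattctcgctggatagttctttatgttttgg
Bdnf window 4, chr3:116637608-116637907, plus strand, with 1 match to the cAMP response element core: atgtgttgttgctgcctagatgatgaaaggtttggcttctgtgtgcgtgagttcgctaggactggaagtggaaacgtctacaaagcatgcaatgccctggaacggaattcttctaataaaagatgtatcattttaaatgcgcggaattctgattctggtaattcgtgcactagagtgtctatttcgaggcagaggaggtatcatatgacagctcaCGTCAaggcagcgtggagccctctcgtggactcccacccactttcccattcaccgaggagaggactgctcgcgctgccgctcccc
Such matches are common: TGANTCA stood in 7.33% and TGACG in 21.2% of all 33469 rat windows of that length, and the full element TGACGTCA in 1.83%. The other 4 Bdnf windows had neither TGANTCA nor TGACG. The arrays carry no data on which start was used.

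The 3 genes whose ratios lay nearest to those of Bdnf over the 8 arrays were Adcyap1, Scg2 and Dusp5, named after their values were seen because Bdnf itself was not called. Nearness was the root mean square log2 distance over the arrays to each of 10910 other symbols. Genes picked in this way share the pattern of animals by their selection, so the likeness is no separate result. It was 0.206 for Adcyap1, which encodes the neuropeptide PACAP, 0.250 for Scg2, a granin of dense-core vesicles, and 0.314 for Dusp5, a phosphatase of ERK. Adcyap1 had ratios of 0.01, 1.10, 1.54 and -0.57 in tMCAO replicates 1 to 4, against -0.38, 0.11, 0.80 and 0.36 in sham replicates 1 to 4. Scg2 had 0.30, 1.33, 1.61 and -0.73 in the tMCAO animals, against -0.02, 0.38, 0.75 and 0.23 in the sham animals. In both, as in Bdnf, tMCAO replicates 2 and 3 were highest, tMCAO replicate 4 was lowest, and sham replicate 3 led its group. None of these 3 genes was called between the groups, with adjusted p of 0.645, 0.655 and 0.388 in limma.

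**Figure D2:**
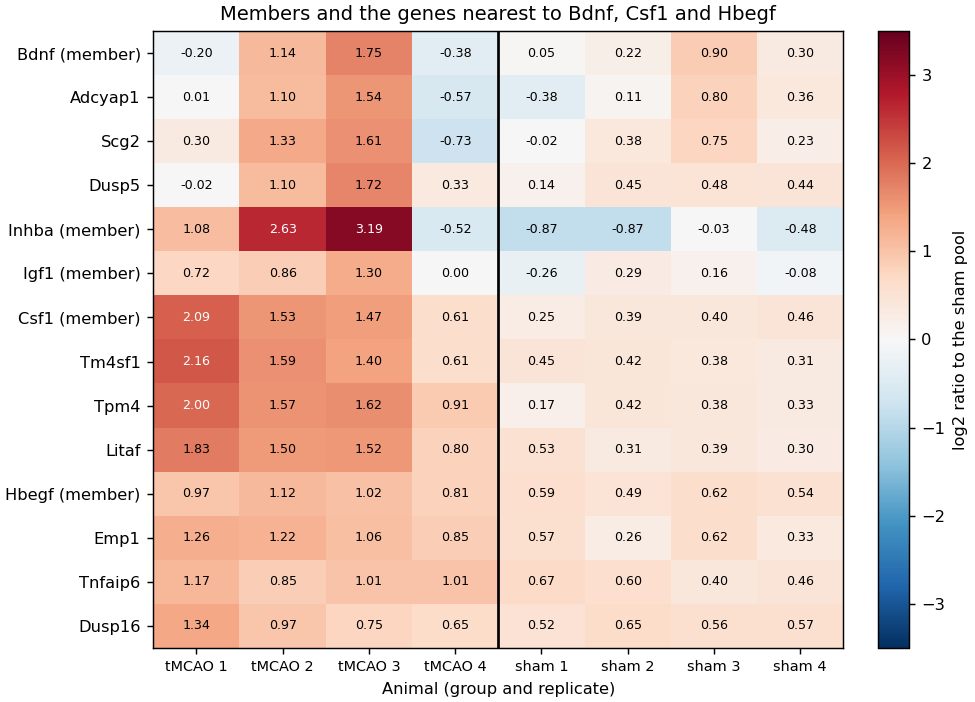
Log2 ratio to the sham pool (colour and printed value) in each tMCAO animal, left of the line, and each sham animal, right of it. Rows are Bdnf, Inhba, Igf1, Csf1 and Hbegf, marked as members, with the 3 nearest genes of Bdnf, Csf1 and Hbegf. Bdnf and its nearest genes peak in tMCAO replicate 3, Csf1 and its nearest genes in tMCAO replicate 1. The nearest genes were picked for this likeness.

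Ntrk2 encodes TrkB, the receptor of BDNF, which neurons make with a kinase domain and astrocytes mostly without one. Its probe for RefSeq transcript NM_012731 read near the top of the intensity scale. The Cy5 signal there was 10.6, 14.9, 19.6 and 17.9 in tMCAO replicates 1 to 4, against 26.6, 23.5 and 23.6 in sham replicates 1, 2 and 4; sham replicate 3 had no value. All 4 tMCAO animals were below the 3 sham animals, with log2 ratios of -1.32, -0.87, -0.34 and -0.54, against 0.12, -0.09 and -0.10. Fitted on these 7 arrays, the difference was -0.74 ± 0.23 (SE), 1.67-fold lower in tMCAO. Its adjusted p was 0.0423 in limma over the 23531 probes with at least 2 values in each group. This fit was added after the missing value was seen. For single probes with values on all arrays 29.6% were called in either direction. The pool read 24.5 to 27.3 at this probe, above 19.2, the lowest level at which bright signals piled up in a channel. All 3 sham animals with a value lay above it too, as did tMCAO replicate 3 at 19.6. Saturation of this probe was not tested, so the sham level may be only a lower bound.

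The second Ntrk2 probe was dim, with Cy5 signals of 0.09 to 0.14 in tMCAO and 0.09 to 0.16 in sham animals. Its difference was -0.24 ± 0.08 (SE) with an adjusted p of 0.0591 in limma, which missed the threshold, and within rounding it could lie between -0.49 and 0.01. The call was gained without sham replicate 2 (adjusted p 0.0435). The files do not say which TrkB form either probe reads. Of the 6 general neuron markers and 8 astrocyte markers, 6 and 4 were called lower; Gfap, the marker of reactive astrocytes, was called higher, and the summed astrocyte signal was 41.2 to 46.6 in tMCAO and 40.7 to 50.4 in sham animals.

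Among the 13 measured genes of the neurotrophins and their receptors, 2 were called higher and 4 lower, with a median difference of -0.09. Ntrk3, the receptor of neurotrophin 3, was lower by 1.58-fold (difference -0.67 ± 0.16, adjusted p 0.0145), and all tMCAO animals lay below all sham animals. Kidins220, a scaffold that Trk receptors phosphorylate, differed by -0.49 ± 0.13 (adjusted p 0.0217), a call lost when any one of sham replicates 1, 2 or 3 or tMCAO replicates 1 or 3 was left out (adjusted p 0.0518 to 0.0600), and its brightest probe alone gave -0.23 (adjusted p 0.133). Sort1, which sorts pro-neurotrophins, was also called lower. Those called higher, named after their values were seen, were Ngfr, the p75 neurotrophin receptor, at 1.60-fold (adjusted p 0.0163), and Ntf4, which is dim, differed by 0.40 (adjusted p 0.0433) and reversed to -0.10 with the Cy5 signal alone. The Ntf4 call was lost without any one of sham replicates 1, 2 or 4 or tMCAO replicates 1 or 4 (adjusted p 0.0615 to 0.105), with array weights (0.0591), an intensity trend (0.0568) or the replicate block (0.103), and against the pool alone (0.119). Ngfr lost its call without sham replicate 3 (adjusted p 0.0504).

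Gdnf encodes glial cell line-derived neurotrophic factor, which signals through GFRA1 and the kinase RET. Its Cy5 signal was 0.02, 0.02, 0.02 and 0.03 in tMCAO replicates 1 to 4, against 0.04, 0.00717, 0.05 and 0.02 in sham replicates 1 to 4. The groups overlapped, and a pool signal of 0.01 to 0.03 left ratios in coarse steps. The difference was 0.23 ± 0.34 (SE) with an adjusted p of 0.630 in limma, and within rounding it could lie between -1.39 and 1.83. It turned to -0.07 without sham replicate 2. No level or change of Gdnf was resolved at this signal.

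Both chains of the GDNF receptor were called. Gfra1 was 1.61-fold higher in tMCAO (difference 0.69 ± 0.16, adjusted p 0.0132). Ret was 1.57-fold higher (difference 0.66 ± 0.16, adjusted p 0.0170), but its 2 probes disagreed, with differences of 0.14 and 1.17. Its call was lost without tMCAO replicate 3 (adjusted p 0.0509) and after quantile normalization (adjusted p 0.412). In both genes every tMCAO animal lay above every sham animal. They were the only 2 of 10 measured genes of the GDNF list that were called, and its median difference was -0.02.

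Igf1 encodes insulin-like growth factor 1, which in injured brain is made by microglia and macrophages among others. Its Cy5 signal was 1.09, 1.14, 1.58 and 0.65 in tMCAO replicates 1 to 4, against 0.45, 0.55, 0.58 and 0.50 in sham replicates 1 to 4. In the animals' own channel all tMCAO values were above all sham values. The pool itself read 0.63 to 0.66 on tMCAO arrays and 0.45 to 0.54 on sham arrays, so the ratio of tMCAO replicate 4 was 0.00, within the sham range of -0.26 to 0.29. The other 3 tMCAO ratios were 0.72, 0.86 and 1.30. The difference was 0.70 ± 0.26 (SE), 1.62-fold with a 95% confidence interval of 1.08 to 2.43, and its adjusted p of 0.0701 in limma missed the threshold. Without tMCAO replicate 4 it was 0.94 (adjusted p 0.00399), and with the Cy5 signal alone 0.94 (adjusted p 0.0205).

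Of 17 measured genes of the insulin-like growth factor list, 3 were called higher and 1 lower, and the median difference was 0.00. Igfbp3, a carrier that binds IGF1, was 3.27-fold higher in tMCAO (difference 1.71 ± 0.37, adjusted p 0.0112). Igf2r, which clears IGF2, was 1.39-fold higher (difference 0.47 ± 0.08, adjusted p 0.00661). The groups did not overlap in either gene. Stc2 was the other gene called higher and Igfbp4 the one called lower, both dim. Without tMCAO replicate 4, 4 genes of the list were called higher and 0 lower.

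Fgf2 encodes basic fibroblast growth factor. Its Cy5 signal was 0.03, 0.03, 0.03 and 0.05 in tMCAO replicates 1 to 4, against 0.04, 0.05, 0.04 and 0.04 in sham replicates 1 to 4, and the pool read 0.02 to 0.05. The groups overlapped. The difference was 0.27 ± 0.19 (SE) with an adjusted p of 0.311 in limma; within rounding it could lie between -0.59 and 1.15, and with the Cy5 signal alone it was -0.12. Of 32 measured genes of the fibroblast growth factor list, 2 were called higher (4 without tMCAO replicate 4) and 5 lower, with a median difference of -0.14. Of the 5 lower genes, 4 carry an Fgf symbol. Fgf13 was 2.56-fold lower in tMCAO (difference -1.36 ± 0.20, adjusted p 0.00387 in limma) and Fgf9 2.04-fold lower (difference -1.03 ± 0.19, adjusted p 0.00716). Fgf12 and Fgf14 were the others. FGF12, FGF13 and FGF14 stay inside neurons and bind sodium channels. Fgfr3, a receptor of astrocytes, was the fifth. Fgfr1, a receptor of FGF2, was 1.26-fold higher (adjusted p 0.0148), but its 3 probes differed from -0.075 to 1.09. The Fgfr1 call was lost after quantile normalization (adjusted p 0.0878). Fgfbp1, the other gene called higher, lost its call with the Cy5 signal alone and in 7 of the 8 fits that left out an animal.

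Hbegf encodes heparin-binding EGF-like growth factor, a membrane-bound ligand of EGFR and ERBB4 that is released by proteases. Its brighter probe had Cy5 signals of 8.26, 10.5, 8.23 and 6.28 in tMCAO replicates 1 to 4, against 5.09, 4.65, 5.28 and 4.86 in sham replicates 1 to 4. The pool read 2.95 to 3.28 there. Every tMCAO animal lay above every sham animal, and every animal of both groups above the pool. The dimmer probe had 0.44, 0.46, 0.51 and 0.47 in the tMCAO animals, against 0.37, 0.32, 0.37 and 0.38 in the sham animals, again without overlap.

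Averaged over the 2 probes, the Hbegf log2 ratios were 0.97, 1.12, 1.02 and 0.81 in tMCAO replicates 1 to 4, against 0.59, 0.49, 0.62 and 0.54 in sham replicates 1 to 4. The difference was 0.42 ± 0.09 (SE), 1.34-fold with a 95% confidence interval of 1.17 to 1.54, and its adjusted p was 0.00986 in limma. The brighter probe alone gave 1.57-fold (adjusted p 0.0119) and the dimmer one 1.15-fold (adjusted p 0.0570). The call held when any one array was left out, with differences of 0.37 to 0.48. Quantile normalization, which gives all arrays the same distribution of ratios, turned the difference to -0.27 (adjusted p 0.113 in limma). Before it, the SD of the ratios was 0.368 to 0.741 on tMCAO arrays and 0.230 to 0.258 on sham arrays. The step removes that difference in spread.

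The sham animals stood above the pool by 1.47-fold for Hbegf (log2 0.56, adjusted p 0.0339 in limma). Sham against the pool is the background of these arrays, and over all features 0.0335% were called higher and 0.0167% lower in it, 6 and 3 features. Hbegf was the only 1 of the 9 genes among them. With the 4 sham arrays alone in the fit its adjusted p was 0.0669, and no feature was called. The tMCAO animals stood above the pool by 1.97-fold.

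RefSeq lists 1 start for Hbegf, on the minus strand, and its window is shown because Hbegf was called. It held 1 match to TGACG, in capitals, and none to TGANTCA.
Hbegf, chr18:28390171-28390470, GRCr8, minus strand: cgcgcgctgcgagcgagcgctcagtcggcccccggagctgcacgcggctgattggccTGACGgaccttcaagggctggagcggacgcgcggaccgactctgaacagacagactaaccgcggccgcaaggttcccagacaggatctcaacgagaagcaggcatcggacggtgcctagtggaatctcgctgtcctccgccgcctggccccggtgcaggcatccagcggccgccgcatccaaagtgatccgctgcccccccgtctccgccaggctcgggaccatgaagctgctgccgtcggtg
In this window 68.7% of the bases were G or C. For Csf1 and Ntrk2, no window was printed.

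The 3 genes nearest to Hbegf over the 8 arrays were Emp1, an epithelial membrane protein, at a distance of 0.155, Tnfaip6, which encodes the hyaluronan-binding protein TSG-6, at 0.168, and Dusp16, a phosphatase of JNK and p38, at 0.194. Emp1 and Tnfaip6 were called higher in tMCAO, by 0.65 (adjusted p 0.00772) and 0.47 (adjusted p 0.00995) on the log2 scale, while Dusp16 was not called (adjusted p 0.0940). Like Hbegf, to which they were picked as nearest, they stood above the pool in all 8 animals. Of 15 measured genes of the EGF list, 3 were called higher and 1 lower, and the median difference was 0.03. Adam17, a protease that sheds HB-EGF, was 1.90-fold higher (difference 0.93 ± 0.16, adjusted p 0.00586). Cd9, a tetraspanin that binds membrane HB-EGF, was 1.62-fold higher (difference 0.70 ± 0.14, adjusted p 0.00891); its Cy5 signal lay above 19.2 in 3 of 4 tMCAO animals, at 19.04 to 28.3 against 15.1 to 17.5 in sham animals, so the fold may be understated. Lrig1, which lowers ErbB receptors, was 1.35-fold lower (adjusted p 0.0363). Egfr itself differed by -0.03 ± 0.10 (adjusted p 0.849).

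**Figure D3:**
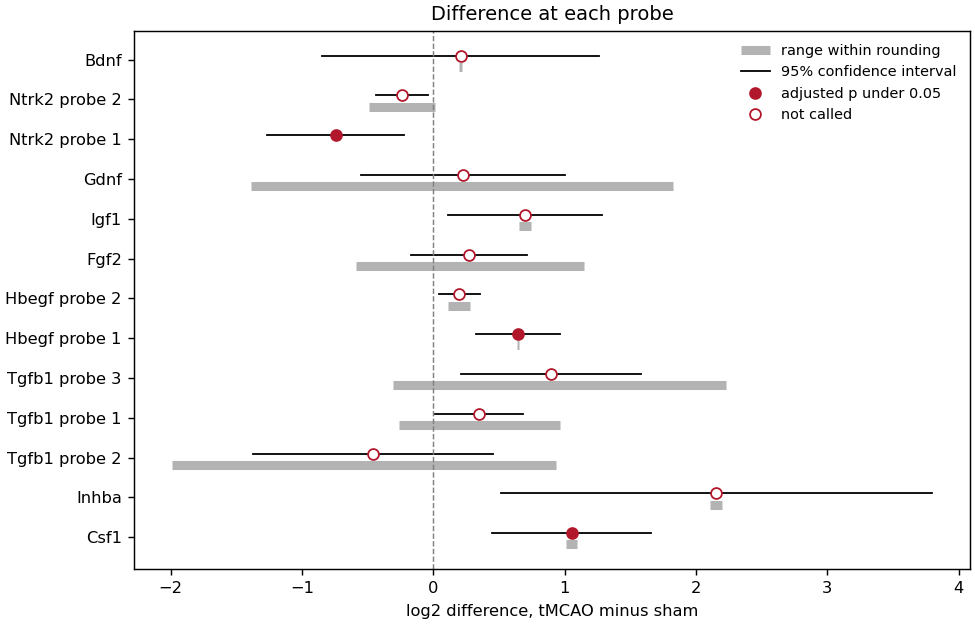
Log2 difference, tMCAO minus sham, at each of the 13 probes. Points carry the 95% confidence interval as a black line and are filled where the adjusted p was under 0.05; grey bars span the range that rounding of the deposited intensities allows. The bars of Gdnf, Fgf2 and the 3 Tgfb1 probes cross 0, while those of Csf1, Inhba and Hbegf do not.

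Tgfb1 encodes TGF-beta 1, which microglia and macrophages make after injury. Its 3 probes carry the same transcript name, and all were dim: outside tMCAO replicate 4, Cy5 signals were 0.01 to 0.07. One probe read 0.12 in the animal and 0.24 in the pool on the array of tMCAO replicate 4, against 0.01 to 0.02 in the pool on the other 7 arrays. The probes disagreed, with differences of 0.35, -0.46 and 0.90. Averaged, the log2 ratios were 0.09 to 0.69 in tMCAO and -0.33 to 0.44 in sham animals, with overlap. The difference was 0.26 ± 0.20 (SE) with an adjusted p of 0.328 in limma, and within rounding it could lie between -0.85 and 1.38. With the Cy5 signal alone it was 0.85 (adjusted p 0.00605) and against the pool alone 0.46 (adjusted p 0.0239), both called, while quantile normalization turned it to -0.07 and leaving out sham replicate 2 gave 0.09 (adjusted p 0.683).

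Inhba encodes the inhibin beta A chain, which pairs to form activin A, a factor induced in neurons by activity. Its Cy5 signal was 1.52, 4.45, 6.10 and 0.46 in tMCAO replicates 1 to 4, against 0.35, 0.34, 0.57 and 0.46 in sham replicates 1 to 4. The pool read 0.58 to 0.72 on the 8 arrays, above every sham animal on its own array. The log2 ratios were 1.08, 2.63, 3.19 and -0.52 in tMCAO replicates 1 to 4, against -0.87, -0.87, -0.03 and -0.48 in sham replicates 1 to 4. In all, 3 tMCAO animals were above all sham animals, and tMCAO replicate 4 lay within the sham range. The tMCAO SD of 1.67 was larger than that of 99.9% of features.

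The Inhba difference was 2.15 ± 0.72 (SE), 4.45-fold with a 95% confidence interval of 1.42 to 13.9, and its adjusted p of 0.0515 in limma missed the threshold. Without tMCAO replicate 4 it was 2.86 (adjusted p 0.00214). Without tMCAO replicate 3, the highest animal, it was 1.62 (adjusted p 0.117). The order of the tMCAO animals, replicate 3 above 2 above 1 above 4, was the same for Bdnf except that Bdnf in replicate 1 was below the pool. Igf1 had that order too. No gene followed Inhba closely: the nearest 3, named after their values were seen, were Gipr, Sprr1a and Eya2 at distances of 0.546, 0.575 and 0.667. Sprr1a, a gene of regenerating neurons, was called higher, by 2.21 on the log2 scale (adjusted p 0.0121).

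RefSeq lists 1 start for Inhba, and its window is shown for comparison with Bdnf and Hbegf. It held neither TGANTCA nor TGACG, so no letter is in capitals.
Inhba, chr17:53804459-53804758, GRCr8, minus strand: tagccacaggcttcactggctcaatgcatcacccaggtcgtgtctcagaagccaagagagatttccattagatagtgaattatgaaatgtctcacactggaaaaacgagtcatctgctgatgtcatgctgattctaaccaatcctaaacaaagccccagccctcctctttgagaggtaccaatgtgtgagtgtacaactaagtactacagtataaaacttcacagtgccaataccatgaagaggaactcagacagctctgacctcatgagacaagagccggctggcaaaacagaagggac
Of the 12 windows that RefSeq lists for 7 of the 9 genes, 5 held TGACG, 1 held TGANTCA and none held TGACGTCA.

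Of 35 measured genes of the TGF-beta and activin list, 11 were called higher and 4 lower, with a median difference of 0.20. Tgfbi, an extracellular protein named for its induction by TGF-beta, was 7.44-fold higher in tMCAO (difference 2.90 ± 0.45, adjusted p 0.00451). Dcn, which binds TGF-beta, was 4.15-fold higher, and Acvrl1, a receptor of vessels, 2.61-fold. Dcn is also 1 of the 8 fibroblast and meninges markers, of which 5 were called higher, with summed signals of 6.78 to 17.3 in tMCAO and 6.23 to 7.45 in sham animals. Fst, the inhibitor of activin, was 1.89-fold lower (difference -0.92 ± 0.26, adjusted p 0.0298), and Acvr2b, an activin receptor, Bambi and Ltbp3 were also called lower.

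Csf1 encodes macrophage colony-stimulating factor, which neurons and glia make and which microglia and macrophages sense through the kinase CSF1R. Its Cy5 signal was 2.22, 1.62, 1.27 and 0.81 in tMCAO replicates 1 to 4, against 0.63, 0.76, 0.71 and 0.77 in sham replicates 1 to 4. The pool read 0.46 to 0.58. The log2 ratios were 2.09, 1.53, 1.47 and 0.61 in tMCAO replicates 1 to 4, against 0.25, 0.39, 0.40 and 0.46 in sham replicates 1 to 4. Every tMCAO animal lay above every sham animal, tMCAO replicate 4 by the smallest margin. The sham animals lay above the pool by 1.29-fold, which was not called (adjusted p 0.707).

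The Csf1 difference was 1.05 ± 0.27 (SE), 2.07-fold with a 95% confidence interval of 1.36 to 3.16, and its adjusted p was 0.0197 in limma. Leaving out sham replicate 1 or 3 or tMCAO replicate 2 or 3 moved the adjusted p just past the threshold, to 0.0524 to 0.0558, with differences of 1.01 to 1.06. Without tMCAO replicate 4 the difference was 1.32 (adjusted p 0.000388). After quantile normalization it was 0.26 (adjusted p 0.214). Its highest animal was tMCAO replicate 1, unlike Bdnf, Inhba and Igf1, whose highest was tMCAO replicate 3. For the 9 monocyte and macrophage markers, the median log2 ratio was 1.63, 1.28, 1.22 and 0.42 in tMCAO replicates 1 to 4, against 0.00 to 0.06 in sham animals. This is the order of animals seen for Csf1, but it was not particular to these markers. Medians of the neutrophil, fibroblast and meninges, pericyte and smooth muscle, oligodendrocyte, and red blood cell lists fell in it too. So did the SD of the log2 ratios over all probes, while the endothelial and microglia medians did not. A link of Csf1 to any of these cells was not tested.

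The genes nearest to Csf1 were Tm4sf1, a membrane protein of endothelium, at a distance of 0.096, Tpm4, a tropomyosin, at 0.135, and Litaf, an endosomal protein, at 0.167. All 3, picked for nearness to a called gene, were called higher in tMCAO, by 1.05, 1.20 and 1.03 on the log2 scale (adjusted p 0.0230, 0.00588 and 0.00808). Tm4sf1 had ratios of 2.16, 1.59, 1.40 and 0.61 in tMCAO replicates 1 to 4, against 0.45, 0.42, 0.38 and 0.31 in sham replicates 1 to 4. Its tMCAO animals fell in the order of Csf1, which the choice by nearness favours. Of 11 measured genes of the colony-stimulating factor list, 3 were called higher and 1 lower (4 and 2 without tMCAO replicate 4), with a median difference of 0.10. Csf1r, the receptor of CSF1 and itself a microglia marker here, was named after its values were seen; it was 1.66-fold higher (difference 0.73 ± 0.19, adjusted p 0.0216), a call lost when any one of 6 of the 8 animals was left out (adjusted p 0.0509 to 0.0620). Csf2rb, the shared beta chain of the GM-CSF receptor, was 1.63-fold higher (adjusted p 0.0305), but its probes differed from -0.55 to 1.95 and quantile normalization turned it to -0.17. Its call was also lost without any one of sham replicate 3 or tMCAO replicates 1, 2 or 3 (adjusted p 0.0578 to 0.0814) and with the replicate number as a block (adjusted p 0.0521). Flt3, a related receptor, was 1.69-fold lower (adjusted p 0.0202), a call lost when any one of sham replicates 2 or 4 or tMCAO replicates 1, 2 or 3 was left out (adjusted p 0.0546 to 0.0588), after quantile normalization (-0.40, adjusted p 0.0822) and with the Cy5 signal alone (-0.44, adjusted p 0.0697).

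**Figure D4:**
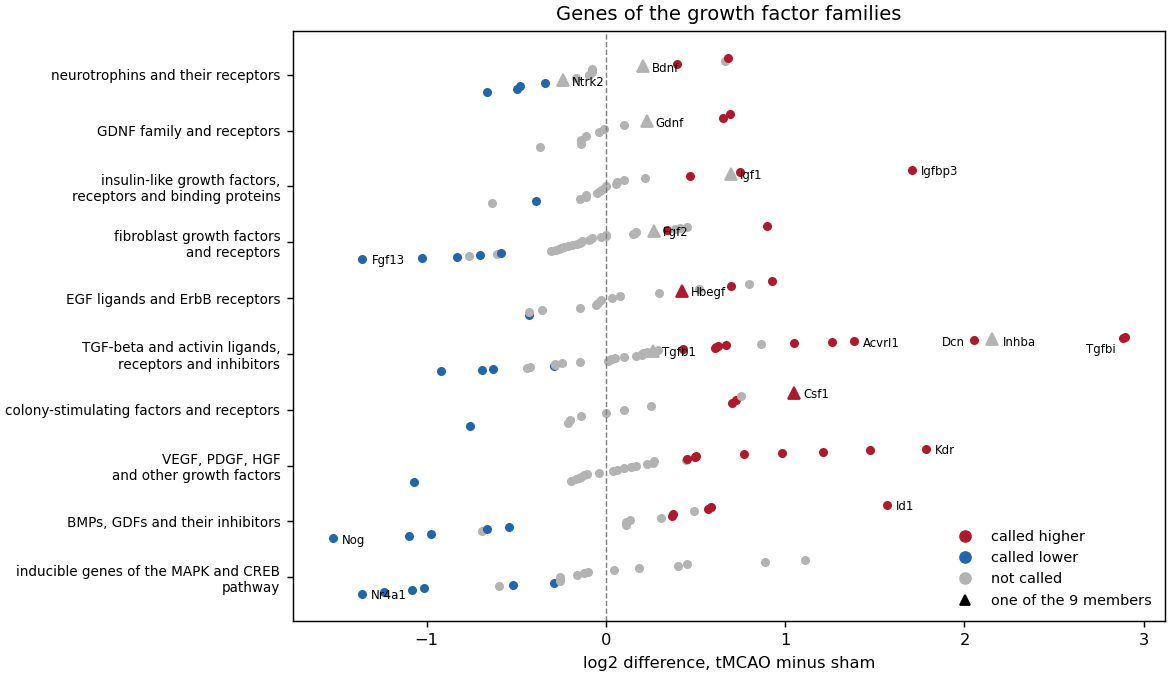
Log2 difference, tMCAO minus sham, of every measured gene in the 10 lists of growth factor families. Red is called higher, blue called lower and grey not called; triangles mark the 9 genes of the report. Tgfbi is farthest to the right, Nog farthest to the left, and no gene of the MAPK and CREB list is red.

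The inducible targets of the MAPK and CREB pathways, which Trk and other growth factor receptors drive, were counted beside the ligands. Of 19 measured genes none was called higher and 6 were called lower in limma, with a median difference of -0.25. Without tMCAO replicate 4 these counts were 1 and 7. Cy5 signals above 19.2, where bright signals piled up, were read in some animals for Egr1, Egr2, Junb, Nptx2 and Vgf. None of these was called, and their differences may be understated. Egr1 passed that level in 3 tMCAO and 2 sham animals. Nptx2, with 1 tMCAO animal there, differed by 1.11 (adjusted p 0.0981 in limma). Nr4a1, an immediate-early nuclear receptor, was 2.57-fold lower in tMCAO (difference -1.36 ± 0.20, adjusted p 0.00400). Dusp1, a phosphatase of MAPKs, was 2.11-fold lower (difference -1.08 ± 0.18, adjusted p 0.00506). Arc, Npas4, Dusp4 and Etv5 were the others called lower. Their sham ratios were 0.01 to 0.52 for Nr4a1 and 0.27 to 0.75 for Dusp1, all above the pool. Over the 10 family lists, 183 of 212 genes other than the 9 were measured; 37 were called higher and 28 lower, 35.5% in either direction, against 31.0% over all features, and their median difference was 0.00.

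**Figure D5:**
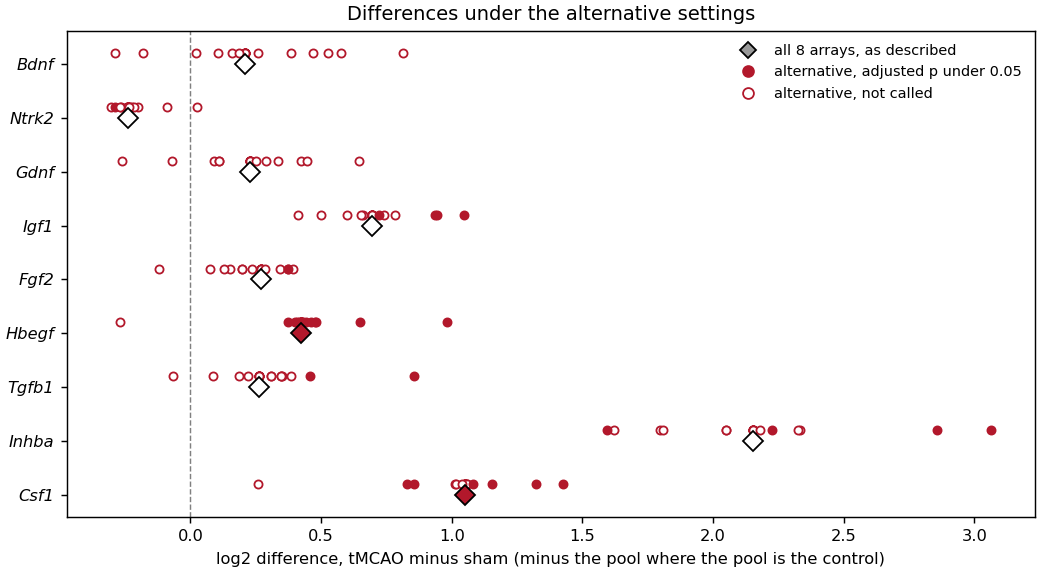
Log2 difference of each of the 9 genes with all 8 arrays (diamonds) and under the alternative settings (circles), tMCAO minus sham, or tMCAO minus the pool where the pool is the control. Filled symbols had an adjusted p under 0.05. Inhba and Igf1 lie right of 0 in every setting shown, and Hbegf and Csf1 are called in most.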

How the data were processed

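The authors deposited 2 kinds of value per array and probe: the normalized linear intensity of each channel, and a p-value comparing the channels. A second deposited table held log10 ratios. Scanner data were read with Agilent Feature Extraction 8.5.1.1, per the submitters' processing notes; the scaling of the intensities and the error model of the deposited p-values are not given in the sources used here. The deposited log10 values matched log10(Cy5/Cy3) of the intensities within 0.005 on every array, so their direction is animal over pool. The labels state 100 ng of RNA and 2 rounds of amplification. The deposited intensities were rounded to 0.01, except those under 0.01 (0.583% of Cy5 values), and 27.9% of Cy5 values lay below 0.1, where ratios are coarse.

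From these, log2(Cy5/Cy3) was computed for 23376 probes with a value on all arrays; 233 probes lacked 1 or more. Symbols were updated through a RefSeq list of the GRCr8 rat assembly, and 48 probes were named by accession. Averaging the probes of each symbol left 10911 symbols beside 7002 unnamed probes. One mean per group was fitted to all 17913 features by lmFit and eBayes of limma 3.58.1 (R 4.3.3), with 2-sided p-values under Benjamini-Hochberg adjustment. The same fit compared sham with the pool. The pipeline was tested on simulated data. The range within rounding moves each intensity by at most 0.005 whichever way shifts the difference most.

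The 9 genes, the lists of families and cell type markers, and the tests were chosen with earlier results of these data known. Named genes of a list were up to 4 called genes with the highest absolute difference among those whose groups did not overlap. Fst, Acvr2b, Bambi, Ltbp3, Fgfr1, Fgfbp1, Fgfr3, Stc2, Igfbp4, Ngfr, Ntf4, Csf1r and Egfr fall outside that rule. So do Arc, Npas4, Egr1, Egr2, Junb, Nptx2 and Vgf. All of these were named after their values were seen. Replicate numbers did not pair the animals: deviations of same-numbered animals correlated at -0.05 to 0.04. The number of arrays limits precision. Promoter windows are from RefSeq on GRCr8; the arrays' files name no genome build, and no other coordinates are given. Some genes of the lists are counted but not reported by name here.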

Additional observations from a re-analysis of the deposited data

Results flagged for a closer look

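Among 43 groups of values of the 9 genes that were examined, 2 held a sample far from the others, and chance alone flags about 1 in 20 groups. Tgfb1 had a log2 ratio of -0.333 in sham replicate 2, against 0.333 to 0.441 in the other 3 sham animals. One Tgfb1 probe read 0.24 in the pool channel on the array of tMCAO replicate 4, against 0.01 to 0.02 in the pool on the other 7 arrays.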

How the results depend on the processing

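Of the 9 genes, 2 were called higher and none lower. The count of higher calls was 0 after quantile normalization of the ratios, 5 with the Cy5 signal alone, 4 with array weights, 6 with the pool alone as the control, 1 at an adjusted p under 0.01, and 1 to 4 when single animals were left out. The count of lower calls was 1 without the 25% dimmest features and with array weights, Ntrk2 in both. It was 0 to 1 when single animals were left out. In these settings Ntrk2 stands for its dim probe alone, because the bright one lacks a value on 1 array. Quantile normalization reversed Bdnf to -0.29, Gdnf to -0.26, Hbegf to -0.27, Tgfb1 to -0.066 and Csf2rb to -0.17. The Cy5 signal alone reversed Ntrk2 to 0.024, Fgf2 to -0.12 and Ntf4 to -0.10. Leaving out single animals gave -0.182 (without tMCAO replicate 3) to 0.53 for Bdnf and -0.071 (without sham replicate 2) to 0.444 for Gdnf. A single Tgfb1 probe gave -0.46. Rounding could reverse Ntrk2 at its dim probe (0.013), Gdnf (-1.39), Fgf2 (-0.59) and Tgfb1 (-0.85). At the bright Ntrk2 probe the range within rounding was -0.744 to -0.742. Apart from rounding, the cause was not tested. Igf1, Inhba and Csf1 kept a positive difference under every setting run.

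Over all features, 2685 were called higher and 2866 lower. These counts were 1537 and 1427 after quantile normalization, 4061 and 4634 with array weights, 4054 and 4721 against the pool alone, 1086 and 870 at an adjusted p under 0.01, and 1811 to 3906 and 1701 to 4313 when single animals were left out. For the other genes of the family lists, 37 higher and 28 lower became 22 and 17 after quantile normalization, 11 and 9 at an adjusted p under 0.01, and 23 to 48 and 13 to 30 when single animals were left out. With the replicate number as a block, which does not pair these animals, lower calls in the family lists were 17, while Hbegf stayed called at 0.42 (adjusted p 0.0361) and Csf1 at 1.05 (adjusted p 0.0435). Sham against the pool gave 6 higher and 3 lower calls, and none with the sham arrays alone in the fit. Signals under about 0.1 limit Gdnf, Fgf2 and Tgfb1.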

Other observations

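Growth factors outside the ligand families described above were measured too. Of 25 genes of the VEGF, PDGF, HGF and related list, 8 were called higher and 1 lower in tMCAO, with a median difference of 0.17 on the log2 scale. Kdr, the main VEGF receptor of endothelium, was 3.45-fold higher in tMCAO (difference 1.79 ± 0.35, adjusted p 0.00842 in limma; Cy5 signal 7.95 to 24.9 in tMCAO, with 2 animals above the 19.2 where bright signals piled up, against 4.15 to 4.6 in sham, so the fold may be understated), and Grn, the progranulin gene that microglia express, 2.31-fold higher (difference 1.21 ± 0.23, adjusted p 0.00759). Kdr is also 1 of the 9 endothelial markers, of which 5 were called higher (7 without tMCAO replicate 4). Of 16 genes of the BMP and GDF list, 5 were called higher and 5 lower. Id1, a target of BMP signalling, was 2.96-fold higher (adjusted p 0.00475), while Nog, the BMP inhibitor noggin, was 2.88-fold lower (difference -1.52 ± 0.21, adjusted p 0.00348).

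The remaining marker lists were counted in the same fit. Calls lower in tMCAO were made for 3 of 5 cortical projection neuron markers, 4 of 6 interneuron markers and 7 of 9 striatal neuron markers. Calls higher were made for 1 of 5 neutrophil markers, 2 of 9 T and NK cell markers, 4 of 7 pericyte and smooth muscle markers, with 1 lower, and 2 of 5 oligodendrocyte precursor markers. None of 7 oligodendrocyte and 4 red blood cell markers was called in limma. Without tMCAO replicate 4, calls higher were made for 3 neutrophil, 5 T and NK cell, 3 oligodendrocyte precursor, 1 oligodendrocyte, 1 interneuron and 1 striatal neuron markers, and calls lower for 4 cortical projection neuron and 3 interneuron markers.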
